A study of Mus musculus with 15 samples.

Results

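The genes described here are the matrix proteases and their inhibitors: every protein-coding mouse gene with an Mmp, Adamts or Timp symbol followed by a number (and a or b where present). They were chosen by symbol alone. Of 21959 protein-coding genes in the files, 45 met the rule: 22 matrix metalloproteinases (MMPs), 19 ADAMTS proteases and 4 tissue inhibitors of metalloproteinases (TIMPs). RNA-seq had been run on 15 libraries, from 3 lines of primary mouse embryonic fibroblasts (MEFs) in each of 5 conditions. All lines carried Tg:Pax7-nGFP on a C57BL6;DBA2 background and came from embryos at mid-gestation, each embryo kept as a separate line, so that lines 1, 2 and 3 are the replicates of every condition. Untreated MEFs were held in iMPC medium, the medium for induced myogenic progenitor cells. The condition +MyoD had been transfected 4 times with synthetic MyoD-mRNA in the same medium with B18R, a decoy protein that blunts the interferon response to foreign RNA. MyoD + F/R/C received in addition forskolin (F, a cAMP agonist), RepSox (R, an inhibitor of the TGF-β receptor) and CHIR99210 (C, an inhibitor of GSK3). The last pair of conditions added to MyoD + F/R/C either SP600125 (SP, an inhibitor of JNK) or CP690550 (CP, an inhibitor of JAK). The labels give day 10 for all libraries, while the file names of the untreated MEFs read d0. B18R and the transfection procedure are not listed for untreated MEFs, so they cannot be told apart from MyoD in any comparison with MEFs, and no condition received F/R/C without MyoD-mRNA. If the file names hold, days in culture also differ in every comparison with MEFs and cannot be told apart from the treatments.

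MMPs and ADAMTS proteases are zinc enzymes that cut proteins outside the cell. MMPs are made as inactive precursors and cleave collagens, gelatin, laminin, fibronectin and other matrix and cell surface proteins, while ADAMTS proteases trim procollagens, split proteoglycans such as versican and aggrecan, or act on fibrillin-rich microfibrils. TIMPs bind the active site of these enzymes. Fibroblasts are a main source of both classes, and in muscle matrix cleavage accompanies the migration and fusion of myoblasts. These are transcript levels, so neither the activation of the enzymes nor their inhibition was measured.

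Each library held between 29393872 and 41885769 estimated counts over all transcripts, with a median of 38458894. Myod1, the gene of the transfected factor, lay between 0.0941 and 0.494 TPM (a level per transcript length, scaled to the same total in every library) in MEFs and between 763 and 3599 TPM in the transfected libraries. All 10 markers of a fibroblast list were at 1 TPM or more on average in every condition, with summed levels of 8786 to 8976 TPM in MEFs and 11264 to 21422 TPM in the transfected conditions. The 10 markers of a skeletal muscle list summed to 43.3 to 64.3 TPM in MEFs. They summed to 2590 to 4978 TPM with +MyoD and to 4818 to 8894 TPM in the conditions with F/R/C. This list holds Myod1 itself, at 1378 to 3324 TPM with +MyoD, so part of the sum can come from the delivered mRNA. The marker levels of the cultures thus differed with the conditions compared. In bulk RNA, fewer cells of a type and less RNA per cell cannot be told apart. Lists for other cell types summed to less than the fibroblast list in every library, and to less than the skeletal muscle list in every transfected library. In MEFs the epithelial list (88.1 to 105.7 TPM) lay above the skeletal muscle list, and the chondrocyte list (36.4 to 72.9 TPM) overlapped it. Over all libraries macrophage markers summed to 21.96 to 45.5 TPM, neutrophil markers to 0.680 to 12.2 TPM and chondrocyte markers to 10.46 to 72.9 TPM. Osteoblast markers summed to 18.6 to 36.4 TPM, endothelial markers to 10.6 to 65.2 TPM and epithelial markers to 18.0 to 105.7 TPM. The part of these cell types in the results was not tested. The spread between lines also differed: fitted alone, the biological coefficient of variation (the relative spread between replicates beyond counting noise) was lowest in MEFs (0.21) and highest with +MyoD (0.49), and 0.29 to 0.35 in the conditions with F/R/C.

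In untreated MEFs the transcripts of the 22 MMP genes summed to 557 ± 23.8 TPM (SD, n = 3). The sum averaged 2883 ± 1271 TPM after MyoD-mRNA alone. It was 2459 ± 239 TPM once F/R/C had been added, and 2227 ± 71.6 TPM and 2263 ± 92.3 TPM with SP and CP on top. Every transfected library lay above every MEF library, from 1671 TPM upwards against at most 579 TPM. The 19 ADAMTS genes summed to 93.5 ± 3.06 TPM in MEFs, 404 ± 120 TPM with +MyoD and 616 ± 99.6 TPM with MyoD + F/R/C, again without overlap between MEFs and the other conditions. The 4 TIMP genes followed another course. Their sum was 1245 ± 154 TPM in MEFs and 2966 ± 983 TPM with +MyoD, and with MyoD + F/R/C it was 1180 ± 99.7 TPM (1067 to 1256 TPM), overlapping the MEF libraries (1101 to 1407 TPM). MMP transcripts per TIMP transcript therefore stood at 0.412 to 0.483 in MEFs, at 1.74 to 2.43 once F/R/C was present, at 1.59 to 1.95 after adding SP and at 2.06 to 2.55 after adding CP. With +MyoD the ratio was 0.411 in line 1, 1.28 in line 2 and 1.57 in line 3, so that line 1 lay at the level of MEFs. These sums and ratios are given as descriptions without a test.

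**Figure D1:**
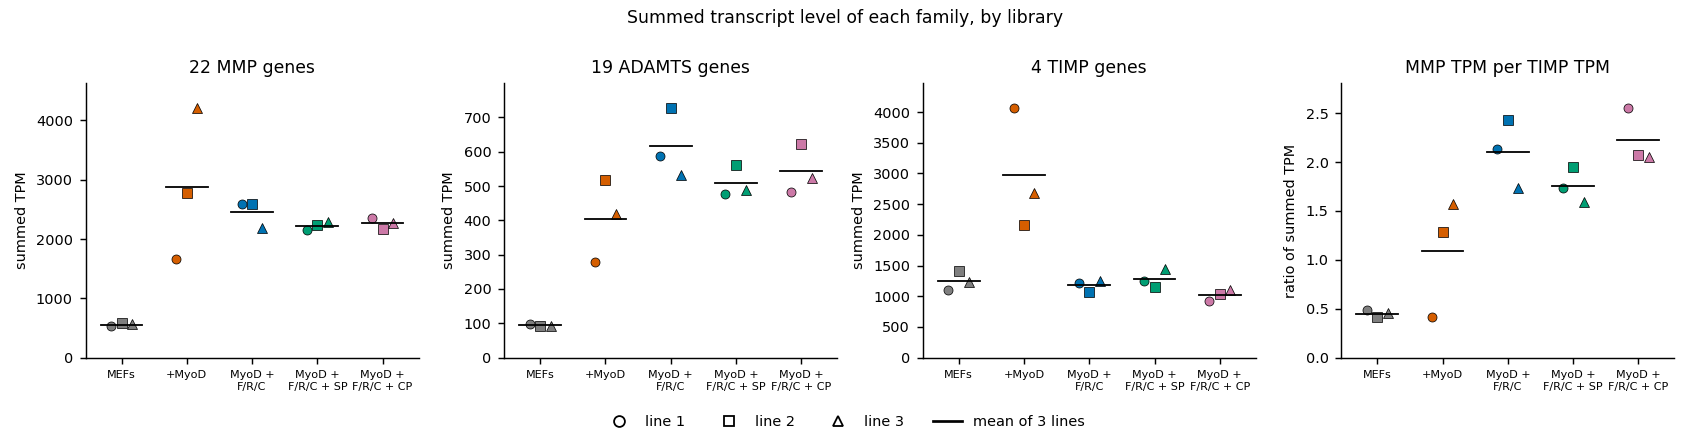
Summed TPM of the 22 MMP, 19 ADAMTS and 4 TIMP genes and the ratio of the MMP sum to the TIMP sum (linear axes starting at 0), 1 point per library with the shape marking the line and the bar the mean of 3 lines. MMP and ADAMTS sums are above the MEF libraries in every transfected library, TIMP sums are highest with +MyoD, and the ratio with +MyoD spreads from 0.411 to 1.57.

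Most of the level rested on few genes. Averaged over all 15 libraries, Timp2 (736 TPM), Mmp2 (724 TPM), Timp1 (616 TPM), Mmp14 (589 TPM) and Mmp3 (511 TPM) were highest, followed by Timp3 (187 TPM), Adamts1 (122 TPM) and Adamts2 (77.2 TPM). At the other end, Adamts13, Mmp20, Mmp21 and Mmp7 had too few counts for the filter on low counts and were not tested, with at most 0.292 TPM in any library (Mmp7, line 1 with MyoD + F/R/C). The other 41 members entered the tests, which covered 19331 genes.

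Fold changes below come from the counts and are given as log2 fold changes with their standard error. A gene was called when its adjusted p was at most 0.05 and its log2 fold change over 0.5 in size, the thresholds of the study's methods. TPM values run slightly ahead of the count fit, by a median of 0.16 on the log2 scale for +MyoD against MEFs, 0.22 for MyoD + F/R/C against MEFs and 0.06 for MyoD + F/R/C against +MyoD. The comparisons share MEF, +MyoD or MyoD + F/R/C libraries and are not independent of each other.

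With +MyoD against MEFs, 32 of the 41 tested members rose and none fell by edgeR's quasi-likelihood test, where 22.8% of all tested genes were called higher and 18.0% lower. Their median log2 fold change was 1.84, against 0.12 over all tested genes. The calls comprised 15 of 19 MMPs, 14 of 18 ADAMTS proteases and 3 of 4 TIMPs. Of the 32 calls, 24 were kept by every one of the 12 alternatives tried, and Adamts3, Adamts8, Mmp10, Mmp11, Mmp13, Mmp17, Mmp1b and Timp1 were lost by at least 1. At an unadjusted p under 0.05 Adamts18 alone was lower (log2 fold change −2.22 ± 0.92, adjusted p = 0.070 by edgeR), and DESeq2 called it lower (adjusted p = 0.020), 1 member in all.

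With MyoD + F/R/C against MEFs, 30 members rose and 3 fell, where 26.6% of all tested genes were called higher and 21.6% lower, and the median of the members was 2.26 against 0.19. Here 25 of the 30 and 2 of the 3 calls were kept by every alternative. The rises of Adamts7, Mmp17, Mmp24, Mmp25 and Timp4 were lost by at least 1. The members that fell were Adamts6, Timp1 and Mmp16, and Mmp16 (−0.82 ± 0.32, adjusted p = 0.044) was lost by 6 alternatives. Adamts18 (−2.13 ± 0.91, adjusted p = 0.070) was called lower by DESeq2 (0.024) and in the fit of the 6 libraries compared (0.0050), with a range of 0.0050 to 0.17 over all alternatives.

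Adding F/R/C to +MyoD moved members in both directions. Compared with +MyoD, 10 members rose and 7 fell, where 10.9% of all tested genes were called higher and 8.39% lower, and the median of the members was 0.10 against 0.03. Of the ADAMTS proteases 7 rose and 2 fell, of the MMPs 2 rose and 2 fell, and of the TIMPs 1 rose and 3 fell. The calls kept by every alternative were those of Adamts15, Adamts19, Adamts2, Adamts20 and Adamts7 upwards and of Timp1, Timp2 and Adamts6 downwards. The number of members called lower moved with the libraries, to 4 without line 2 of +MyoD and to 3 without line 3 of MyoD + F/R/C. With line as a block, 4 further members passed: Adamts12 (adjusted p = 0.047), Adamts3 (0.048) and Mmp24 (0.029) upwards and Mmp23 (0.047) downwards.

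**Figure D2:**
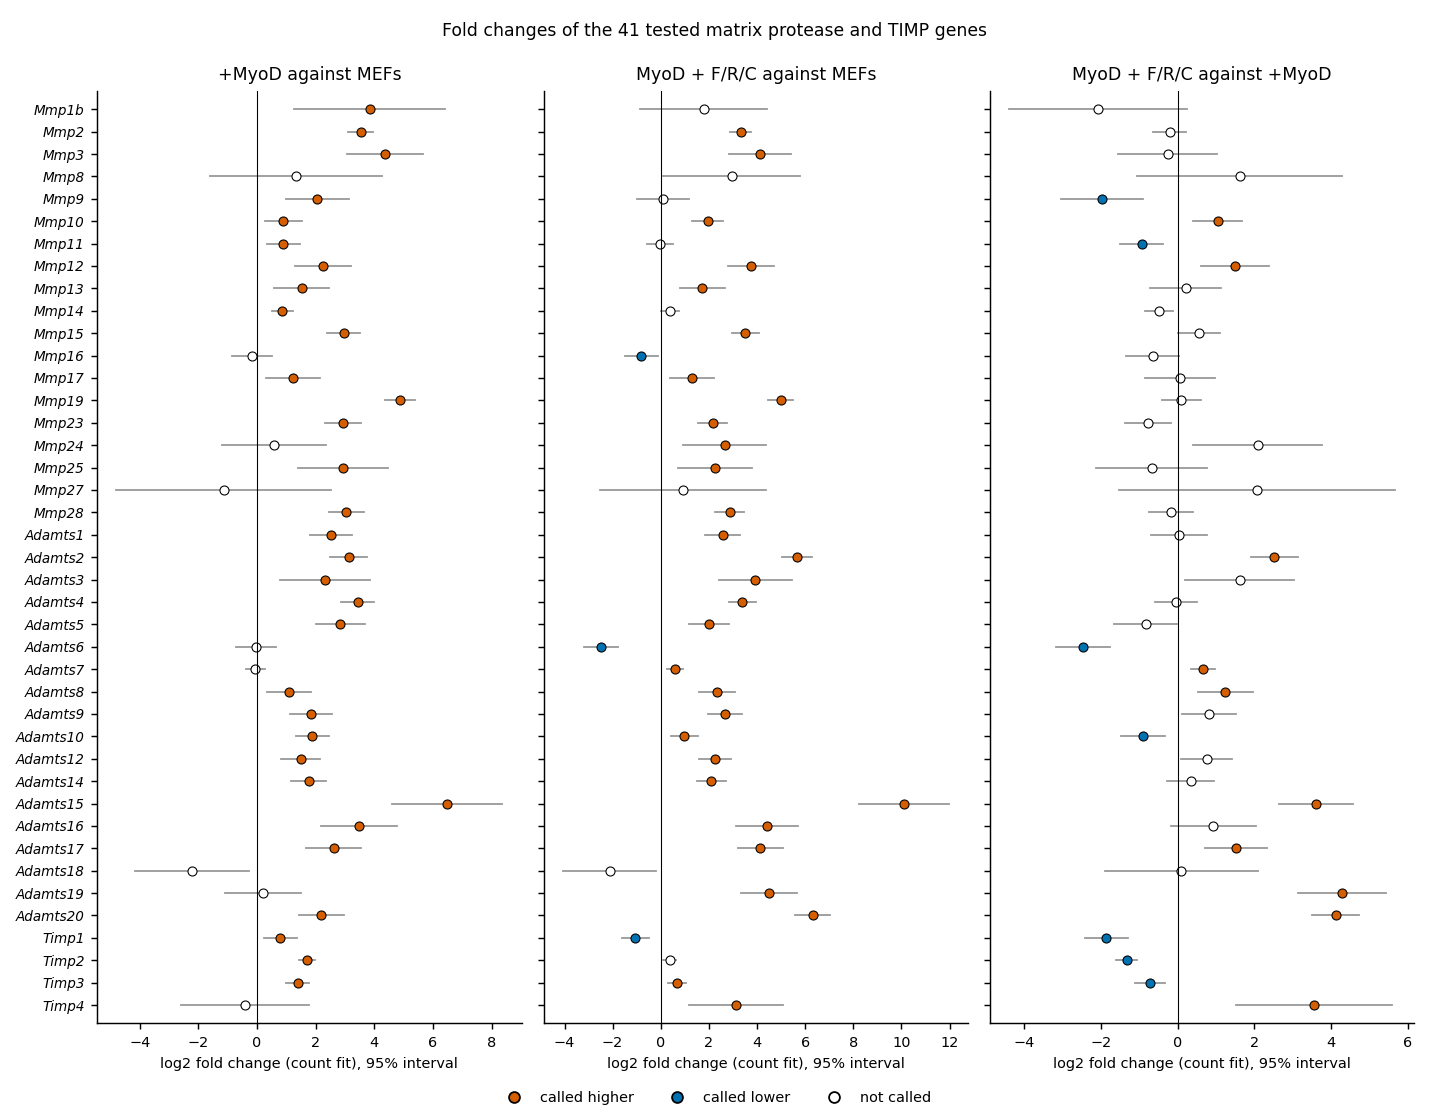
Log2 fold changes of the 41 tested members with 95% intervals from the count fit, for +MyoD against MEFs, MyoD + F/R/C against MEFs and MyoD + F/R/C against +MyoD (3 lines per condition; each panel has its own scale). Filled points passed the test; 32 rose and none fell in the first panel, 30 rose and 3 fell in the second, and 10 rose and 7 fell in the third, where Timp1, Timp2 and Timp3 lie below 0.

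Mmp2 encodes gelatinase A, a secreted enzyme that cuts denatured collagen and basement membrane collagen, and Mmp14 encodes the membrane-bound enzyme that activates it at the cell surface with the help of the TIMP2 protein. Mmp2 (chromosome 8, 92827291 to 92853420, GRCm38, plus strand) lay at 85.4, 74.2 and 73.1 TPM in MEF lines 1, 2 and 3, and at 617, 1154 and 1125 TPM with +MyoD. The groups were far apart, and the gene rose by 3.53 ± 0.20 on the log2 scale, 11.6-fold (adjusted p = 2.1e-08). With MyoD + F/R/C it held 931, 1031 and 676 TPM, within the range of the +MyoD lines (log2 fold change −0.20, 95% interval −0.64 to 0.23, adjusted p = 0.55). Mmp14 (chromosome 14, 54431612 to 54445364, plus strand) was already at 344, 383 and 367 TPM in MEFs. It rose with +MyoD to 628, 831 and 677 TPM, above every MEF library, by 0.87 ± 0.17 (adjusted p = 0.00073). With MyoD + F/R/C it stood at 639, 542 and 441 TPM, also above MEFs in each line, but the difference did not pass (0.38 ± 0.17, adjusted p = 0.079).

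Mmp9 encodes gelatinase B. Its levels were 7.92, 9.60 and 6.85 TPM in MEFs, 14.0, 54.8 and 31.1 TPM with +MyoD, and 15.4, 8.96 and 8.55 TPM with MyoD + F/R/C. It rose with +MyoD by 2.06 ± 0.50 (adjusted p = 0.0041) and was lower with MyoD + F/R/C than with +MyoD by −1.97 ± 0.50 (adjusted p = 0.012), although line 1 overlapped between the latter groups. That call was lost without line 2 of +MyoD, without line 3 of MyoD + F/R/C and in the fit of the 6 libraries compared.

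Of the other membrane-anchored MMPs, Mmp15, Mmp17 and Mmp25 were called higher with +MyoD. For Mmp17 the libraries overlapped, at 3.61, 2.35 and 1.11 TPM in MEFs and 3.25, 6.75 and 1.20 TPM with +MyoD. Its call (log2 fold change 1.24, adjusted p = 0.031 by edgeR) was lost by 5 of the 12 alternatives. Mmp15 rose by 2.95 ± 0.27 (adjusted p = 7.8e-07), from 1.15, 0.961 and 1.08 TPM in MEFs to 13.5, 4.63 and 11.5 TPM. It stayed at 9.99 to 18.0 TPM with MyoD + F/R/C, 3.52 ± 0.27 above MEFs. Mmp16 and Mmp24 did not pass in this comparison. Mmp25 reached at most 0.839 TPM and Mmp24 at most 1.46 TPM in any library.

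Mmp3 encodes stromelysin-1, which degrades proteoglycans, laminin and fibronectin and activates other MMPs. In MEFs it lay at 21.4, 50.2 and 32.2 TPM. With +MyoD it was at 152, 347 and 1968 TPM, the widest spread among the 5 most abundant members, and with MyoD + F/R/C at 711, 682 and 729 TPM. It was above all MEF libraries in every transfected library and rose by 4.38 ± 0.61 with +MyoD (adjusted p = 0.00010) and by 4.13 ± 0.61 with MyoD + F/R/C (adjusted p = 0.00012). Between +MyoD and MyoD + F/R/C no difference passed (−0.26 ± 0.61, adjusted p = 0.83), and line 3 of +MyoD decided the direction: without it Mmp3 was higher with MyoD + F/R/C, by 1.43 with an adjusted p of 0.013 (0.013 to 0.94 over all alternatives), and with line as a block the value was 0.09. Mmp10, stromelysin-2, rose from 8.35, 11.1 and 13.4 TPM in MEFs to 54.8, 52.9 and 39.4 TPM with MyoD + F/R/C (1.95 ± 0.30, adjusted p = 7.7e-05). Mmp11, stromelysin-3, rose with +MyoD by 0.90 ± 0.26 (adjusted p = 0.011) and was lower with MyoD + F/R/C than with +MyoD (−0.93 ± 0.26, adjusted p = 0.018), and both calls were lost when single lines were left out.

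Mmp19, a secreted MMP of many matrix substrates, rose by more than any other MMP in both comparisons with MEFs. The gene (chromosome 10, 128790910 to 128800824, plus strand) lay at 4.37, 2.42 and 2.23 TPM in MEFs, at 64.6, 63.1 and 134 TPM with +MyoD and at 93.9, 97.4 and 94.3 TPM with MyoD + F/R/C. The fold changes were 4.88 ± 0.24 (29.5-fold, adjusted p = 8.4e-09) and 4.99 ± 0.24 (adjusted p = 3.0e-09). Its 3′ end overlaps Tmem198b on the other strand. Mmp28, epilysin, was at 0.807, 0.558 and 0.796 TPM in MEFs and at 5.64, 5.76 and 5.45 TPM with +MyoD, with no overlap and a rise of 3.04 ± 0.28 (adjusted p = 9.6e-07). Mmp23, a short transmembrane MMP with an ion channel inhibitory region, rose by 2.93 ± 0.28 with +MyoD (adjusted p = 1.6e-06), from a highest MEF value of 19.96 TPM to a lowest value of 94.0 TPM.

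**Figure D3:**
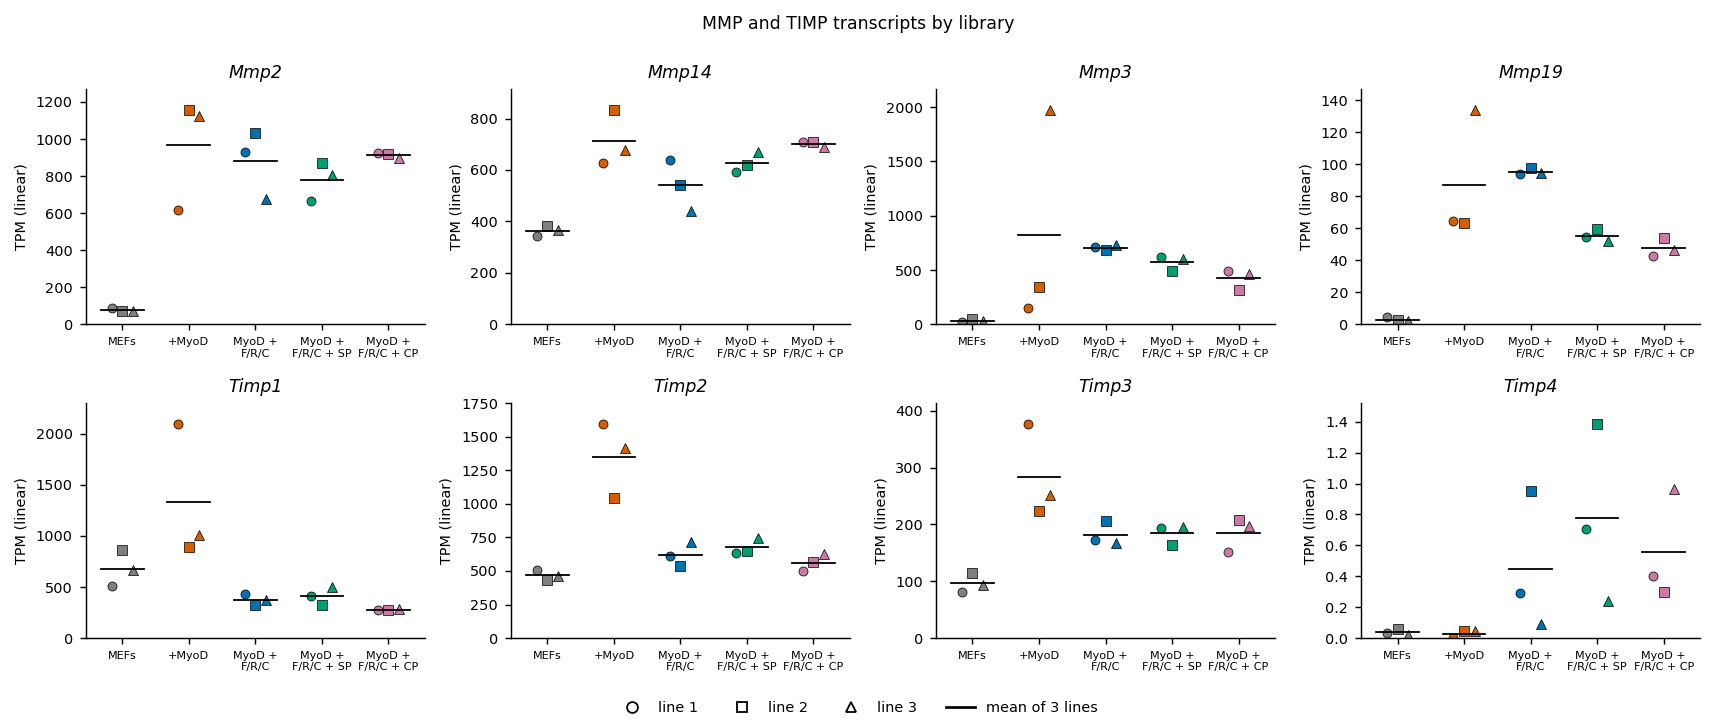
TPM of Mmp2, Mmp14, Mmp3, Mmp19 and the 4 TIMP genes in each of the 15 libraries (linear axes starting at 0, each panel with its own scale), 1 point per library with the shape marking the line and the bar the mean of 3 lines. Mmp2, Mmp3 and Mmp19 lie above the MEF libraries in all transfected libraries, Mmp3 reaches 1968 TPM in line 3 of +MyoD, and Timp1, Timp2 and Timp3 are highest with +MyoD.

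Mmp3, Mmp10, Mmp12 and Mmp13 belong to a cluster of MMP genes on chromosome 9. On GRCm38 it runs over 427072 bases from 7272514 to 7699585 and holds 10 MMP genes, 9 of them members and the last, Mmp1a, annotated as a polymorphic pseudogene. In the order of the chromosome they are Mmp13, Mmp12, Mmp1b, Mmp3, Mmp1a, Mmp10, Mmp8, Mmp27, Mmp20 and Mmp7. Expression was uneven along it. Mmp3 averaged 511 TPM over all libraries, Mmp10 averaged 28.5 TPM, Mmp13 (collagenase-3) 21.2 TPM and Mmp12 (macrophage elastase) 5.69 TPM, while Mmp1b, Mmp8, Mmp27, Mmp20 and Mmp7 averaged 0.503 TPM or less. Mmp3, Mmp10, Mmp12 and Mmp13 were all called higher both with +MyoD and with MyoD + F/R/C against MEFs. Mmp12 went from 0.416, 0.329 and 1.05 TPM in MEFs to 4.26, 2.43 and 3.48 TPM with +MyoD and to 13.9, 6.13 and 9.50 TPM with MyoD + F/R/C. These groups did not overlap, and the steps were 2.25 ± 0.45 (adjusted p = 0.00085) and a further 1.504 ± 0.416 (adjusted p = 0.019), the latter lost in the fit of 6 libraries, without line 1 of MyoD + F/R/C and without line 2 of +MyoD. Mmp1b, a collagenase gene, lay at 0.139, 0 and 0.056 TPM in MEFs, 0.936, 0.302 and 2.32 TPM with +MyoD and 0.197, 0.169 and 0.488 TPM with MyoD + F/R/C. It was called higher with +MyoD (3.85 ± 1.21, adjusted p = 0.019) from few counts, a call lost without line 2 or 3 of MEFs or line 3 of +MyoD. Mmp12 and Mmp1b overlap on opposite strands. Mmp12 is known from macrophages. Of the 10 genes of the macrophage list, 6 to 8 reached 1 TPM or more in at least 1 library of each condition. The sums of 26.9 to 43.6 TPM (MEFs), 25.2 to 41.5 TPM (+MyoD) and 24.7 to 37.4 TPM (MyoD + F/R/C) overlapped. Ptprc, the gene of the pan-leukocyte marker CD45, reached at most 0.374 TPM in any library. Single genes of the list went both ways: none was called with +MyoD against MEFs, 2 rose and 3 fell with MyoD + F/R/C against MEFs, and 2 rose and 2 fell against +MyoD. In the same order, 22.8%, 26.6% and 10.9% of all tested genes were called higher, and 18.0%, 21.6% and 8.39% lower. Fcer1g lay at 0.480 to 4.28 TPM in MEFs and 9.88 to 21.5 TPM with MyoD + F/R/C, and C1qa at 1.80 to 2.54 TPM and 0 to 0.574 TPM. Their part in the level of Mmp12 was not tested.

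Start regions of 7 cluster genes held the same letter pattern. No result is given for Mmp1a, which is not a member, or for Mmp27. RefSeq promoter entries on GRCm38.p6, 250 bases before to 50 after the start, were found for 31 of the 45 members, and the AP-1 motif TGANTCA, searched on both strands, was present in 7 of them (22.6%), against 7.81% of 32851 promoters of all genes. Members were counted per gene, with a match in any entry of the gene, while the share over all promoters was counted per entry. The shares, here and for the motifs below, are therefore not like for like. AP-1 is the dimer of Fos and Jun proteins, the latter substrates of the JNK kinases. All 7 are genes of the chromosome 9 cluster. The promoter of Mmp8 in the same cluster was searched and held no match. Mmp12 has a further RefSeq entry, chr9:7344147-7344446, which covers the first base of the annotated gene (7344381) and held no match. Of 5 motifs searched, CRE (TGACGTCA) was in 0 of 31 members and 1.79% of all promoters, the E-box CAGCTG in 7 members and 16.3%, the ETS core AGGAAG in 14 members and 35.4%, and TATAAA in 10 members and 13.6%. The 7 windows are shown, in the direction of transcription, because they hold the pattern; each is 57 bases with 25 on either side of the AP-1 letters, which are in capitals, and no binding was measured. The set was chosen after expression had been seen.
Mmp13, chr9:7272454-7272510, plus strand: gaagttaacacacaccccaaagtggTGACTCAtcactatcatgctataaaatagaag
Mmp12, chr9:7347305-7347361, plus strand: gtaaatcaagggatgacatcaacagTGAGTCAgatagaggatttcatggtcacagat
Mmp1b, chr9:7388088-7388144, minus strand: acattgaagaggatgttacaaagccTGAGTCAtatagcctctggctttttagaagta
Mmp3, chr9:7445751-7445807, plus strand: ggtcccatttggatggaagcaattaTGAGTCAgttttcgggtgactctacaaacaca
Mmp10, chr9:7502254-7502310, plus strand: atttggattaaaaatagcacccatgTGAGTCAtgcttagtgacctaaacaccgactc
Mmp20, chr9:7628111-7628167, plus strand: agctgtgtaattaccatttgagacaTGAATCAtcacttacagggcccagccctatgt
Mmp7, chr9:7692002-7692058, plus strand: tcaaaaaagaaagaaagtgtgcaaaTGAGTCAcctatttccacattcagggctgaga

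The first base of the AP-1 letters lay between 95 bases (Mmp20) and 35 bases (Mmp13) before the start given by the RefSeq entry. For Mmp12 that start, and the letters, lie inside the annotated gene and not before its first base. Genes with these letters ranged widely in level: over all 15 libraries Mmp3 averaged 511 TPM, Mmp12 5.69 TPM and Mmp1b 0.503 TPM, and Mmp7 and Mmp20 had too few counts to be tested. Of the 7 AP-1 subunit genes, Fos rose by 3.58 ± 0.62 with +MyoD and by 5.34 ± 0.62 with MyoD + F/R/C against MEFs (adjusted p = 0.00046 and 1.9e-05). Its mean level went from 6.88 to 83.2 and 308 TPM. Jund rose in both (1.57 ± 0.39 and 1.59 ± 0.39), Fosb rose with MyoD + F/R/C against MEFs (3.21 ± 0.73, adjusted p = 0.0030), and Jun was 1.17 ± 0.31 higher with MyoD + F/R/C than with +MyoD (adjusted p = 0.015), where Fosl2 was lower (−0.58 ± 0.19, adjusted p = 0.041). Fosl1 went the other way, from 134 TPM in MEFs to 39.1 TPM with +MyoD (−2.51 ± 0.36, adjusted p = 6.4e-05) and 58.3 TPM with MyoD + F/R/C. In all, 2 of the 7 subunit genes rose and 1 fell with +MyoD, where 22.8% of all tested genes were called higher and 18.0% lower. With MyoD + F/R/C against MEFs 5 rose and 1 fell, where the shares were 26.6% and 21.6%.

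ADAMTS2, ADAMTS3 and ADAMTS14 are the procollagen N-proteinases, which remove the amino-terminal propeptide of fibrillar collagens. All 3 genes rose in both comparisons with MEFs. Adamts2 (chromosome 11, 50602084 to 50807573, plus strand) climbed with each step: 3.38, 3.13 and 4.03 TPM in MEFs, 13.3, 32.3 and 31.0 TPM with +MyoD, and 141, 194 and 119.8 TPM with MyoD + F/R/C. No library of 1 condition overlapped another of these, and the changes were 3.12 ± 0.29 with +MyoD (adjusted p = 1.3e-06) and a further 2.52 ± 0.29 with F/R/C (adjusted p = 4.0e-05). Against MEFs, MyoD + F/R/C held 49.9-fold more (5.64 ± 0.29, adjusted p = 8.3e-09). Its RefSeq promoter holds the E-box CAGCTG at 24 and again at 8 bases before the start, with no binding measured here. Adamts14 went from 10.9 to 18.5 TPM in MEFs to 25.7 to 84.3 TPM with +MyoD (1.76 ± 0.29, adjusted p = 0.00016) and no further change passed with MyoD + F/R/C (0.34, 95% interval −0.26 to 0.95, adjusted p = 0.45), except without line 1 of +MyoD (0.79, adjusted p = 0.035). Adamts3 reached 4.39, 8.44 and 5.96 TPM with MyoD + F/R/C from 0.341 to 0.509 TPM in MEFs (3.92 ± 0.71, adjusted p = 0.00050). With +MyoD it was at 0.0983 TPM in line 1, below every MEF library, and at 2.74 and 3.11 TPM in lines 2 and 3.

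Of the proteoglycan-cleaving group (Adamts1, Adamts4, Adamts5, Adamts8, Adamts9, Adamts15 and Adamts20), 7 of 7 genes were called higher in both comparisons with MEFs. The shares of all tested genes were 22.8% with +MyoD and 26.6% with MyoD + F/R/C. The call of Adamts8 with +MyoD, at 0.441 to 0.650 TPM, was lost by 6 of the 12 alternatives. Adamts15 had the largest log2 fold change of all members in both comparisons with MEFs. The gene (chromosome 9, 30899155 to 30922452, minus strand) was nearly silent in MEFs, with 0.0219, 0.0699 and 0.0364 TPM from 3, 10 and 5 counts. With +MyoD it lay at 2.41, 2.99 and 17.3 TPM, and with MyoD + F/R/C at 50.2, 75.8 and 40.2 TPM, from 6713, 10690 and 5956 counts. The 3 conditions were fully separate. The log2 fold changes were 6.49 ± 0.88 for +MyoD (adjusted p = 2.8e-06) and 10.09 ± 0.88 for MyoD + F/R/C against MEFs (adjusted p = 4.3e-08), and because the MEF counts are so low the size of the latter is known only to a 95% interval of 8.22 to 11.96. Between +MyoD and MyoD + F/R/C the rise was 3.602 ± 0.451 (12.1-fold, adjusted p = 0.00012).

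Adamts20, an enzyme known for its part in the spread of pigment cell precursors, rose mainly where F/R/C was present. It stood at 0.129, 0.135 and 0.0902 TPM in MEFs, at 1.34, 0.473 and 0.728 TPM with +MyoD and at 6.62, 7.98 and 11.9 TPM with MyoD + F/R/C. Groups did not overlap at either step, and the changes were 2.18 ± 0.36 (adjusted p = 0.00011) and 4.12 ± 0.28 (17.4-fold, adjusted p = 1.1e-06). For Adamts4 and Adamts1 no difference between MyoD + F/R/C and +MyoD passed. Adamts4 (aggrecanase-1) rose from 2.93, 2.003 and 2.60 TPM to 18.2, 42.1 and 27.5 TPM (3.43 ± 0.26, adjusted p = 2.2e-07) and its difference between MyoD + F/R/C and +MyoD was −0.04 (95% interval −0.59 to 0.50). For Adamts1 the corresponding values were 2.53 ± 0.34 (adjusted p = 3.8e-05) and 0.04 (−0.68 to 0.77), and line 1 of +MyoD, at 48.1 TPM against 186 and 184 TPM in lines 2 and 3, was again the lowest.

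Versican, aggrecan and other substrates were read from a list of 11 genes, of which 6 rose and 1 fell with +MyoD and 5 rose and 2 fell with MyoD + F/R/C against MEFs. Of all tested genes, 22.8% were called higher and 18.0% lower with +MyoD, and 26.6% and 21.6% with MyoD + F/R/C. Vcan, the gene of versican, averaged 61.0 TPM in MEFs and 231 TPM with MyoD + F/R/C (1.32 ± 0.20, adjusted p = 5.2e-05), and Vwf, von Willebrand factor, rose from 0.322 to 3.06 TPM (3.69 ± 0.53, adjusted p = 4.9e-05). Comp, cartilage oligomeric matrix protein, rose with +MyoD from 0.359 to 13.7 TPM (5.96 ± 0.62, adjusted p = 4.9e-06). Sparc, a collagen-binding matrix protein, rose in both comparisons with MEFs (2.06 ± 0.16 and 1.29 ± 0.16) and was lower with MyoD + F/R/C than with +MyoD (−0.77 ± 0.16, adjusted p = 0.0029). Fn1, fibronectin, went from 911 TPM to 3271 TPM with +MyoD (1.65 ± 0.26) and to 708 TPM with MyoD + F/R/C, the last step being −2.33 ± 0.26 (adjusted p = 3.4e-05).

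Adamts6 and Adamts10 are tied to fibrillin microfibrils, and Adamts6 was called lower against MEFs. It lay at 5.85, 9.80 and 9.70 TPM in MEFs and at 10.8, 11.7 and 5.69 TPM with +MyoD, where no difference passed (−0.03, 95% interval −0.73 to 0.66). With MyoD + F/R/C it was at 1.35, 1.17 and 2.44 TPM, below every library of the other groups named. The drop was −2.49 ± 0.33 against MEFs (adjusted p = 2.2e-05) and −2.46 ± 0.33 against +MyoD (5.48-fold lower, adjusted p = 0.00014). Adamts10 rose with +MyoD (1.89 ± 0.27, adjusted p = 4.9e-05) and was 34.6 to 51.2 TPM with MyoD + F/R/C against 54.9 to 107 TPM with +MyoD (−0.91 ± 0.27, adjusted p = 0.025), a call lost without single lines and in the fit of 6 libraries.

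Adamts7 and Adamts12 cleave cartilage oligomeric matrix protein. Adamts7 moved little: it was 0.60 ± 0.15 higher with MyoD + F/R/C than in MEFs (adjusted p = 0.0036) and 0.66 ± 0.15 higher than with +MyoD (adjusted p = 0.0052). Its call against MEFs was lost without line 2 of MEFs. Adamts12 rose by 1.49 ± 0.31 with +MyoD (adjusted p = 0.0012) and stood at 50.3, 40.0 and 25.2 TPM with MyoD + F/R/C, from 7.17, 8.38 and 6.03 TPM in MEFs. Among the remaining genes, Adamts19 was at or under 0.179 TPM in all MEF and +MyoD libraries and at 1.88, 1.13 and 2.01 TPM with MyoD + F/R/C, a rise of 4.29 ± 0.54 over +MyoD (adjusted p = 8.1e-05). Adamts17 rose by 4.13 ± 0.44 with MyoD + F/R/C against MEFs (adjusted p = 2.1e-06), from 0.0812 to 0.437 TPM to 1.42 to 3.15 TPM. Its call between MyoD + F/R/C and +MyoD (1.52 ± 0.38, adjusted p = 0.010) depended on how transcripts were summed: with counts scaled by transcript length the adjusted p was 0.42.

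**Figure D4:**
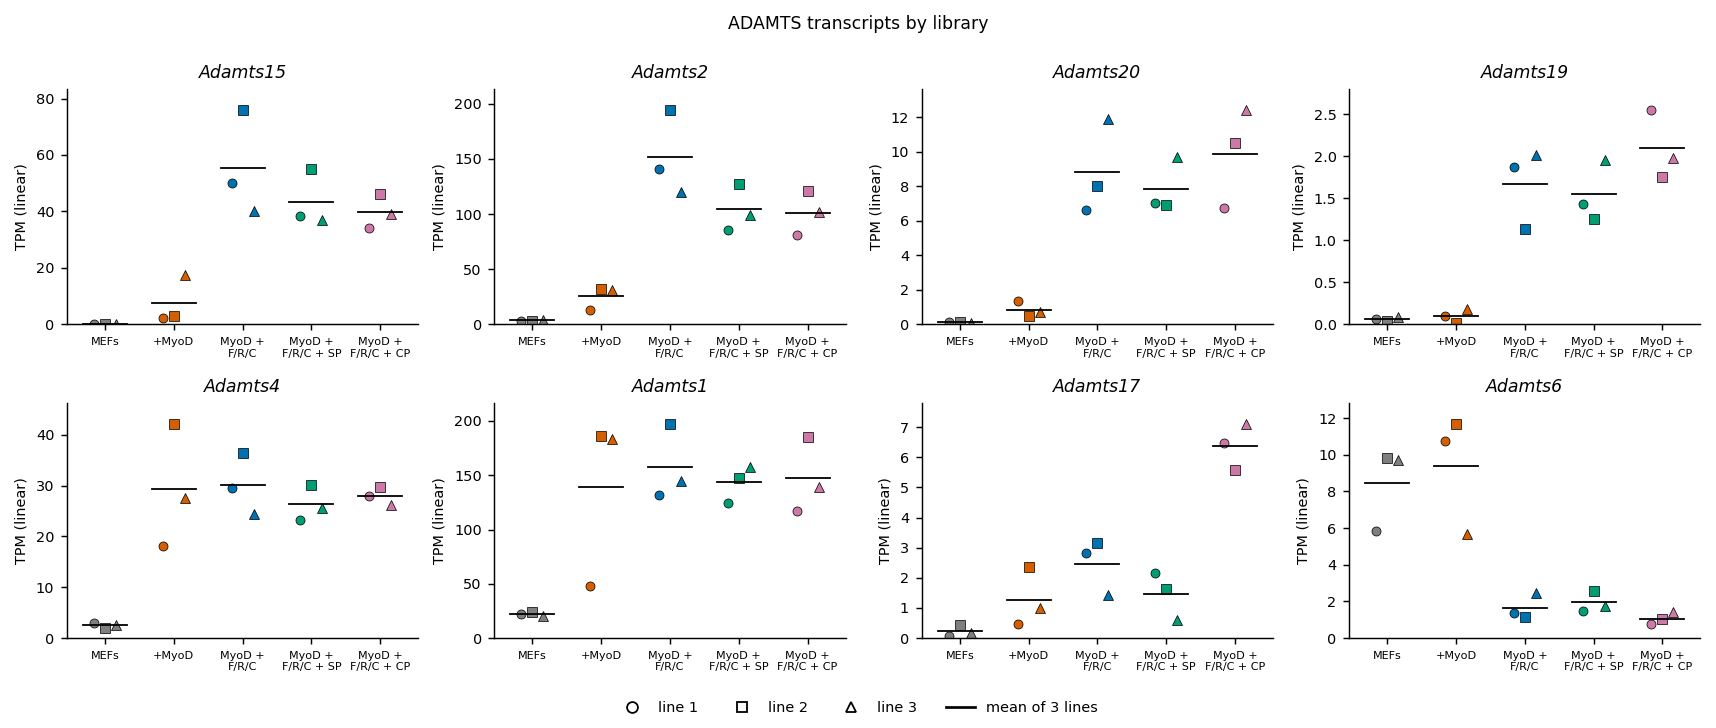
TPM of 8 ADAMTS genes in each of the 15 libraries (linear axes starting at 0, each panel with its own scale), 1 point per library with the shape marking the line and the bar the mean of 3 lines. Adamts15, Adamts2, Adamts20 and Adamts19 are highest in the conditions with F/R/C, Adamts4 and Adamts1 are already raised with +MyoD, Adamts6 is low where F/R/C was given, and Adamts17 lies at 5.57 to 7.09 TPM with CP.

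Timp1, Timp2 and Timp3 all rose with +MyoD and all fell when F/R/C was added to it. Timp1 (chromosome X, 20870166 to 20874735, plus strand) lay at 509.6, 861 and 669 TPM in MEFs, at 2092, 890.1 and 1014 TPM with +MyoD and at 431, 325 and 375 TPM with MyoD + F/R/C. Lines with MyoD + F/R/C were below all others in these conditions. Its rise with +MyoD (0.80 ± 0.26, adjusted p = 0.022) was lost without line 1 of +MyoD, without line 1 or 3 of MEFs and in the fit of 6 libraries. Its drop from +MyoD to MyoD + F/R/C (−1.86 ± 0.26, 3.62-fold lower, adjusted p = 0.000195) and against MEFs (−1.06 ± 0.26, adjusted p = 0.0035) was kept by every alternative.

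Timp2, whose protein both inhibits MMPs and takes part in the activation of MMP2 by MMP14, had 510.4, 431 and 465 TPM in MEFs, 1592, 1046 and 1413 TPM with +MyoD and 614, 535 and 713 TPM with MyoD + F/R/C. It rose with +MyoD by 1.71 ± 0.13 (3.27-fold, adjusted p = 1.0e-07) and was lower with F/R/C than without (−1.33 ± 0.13, 2.51-fold, adjusted p = 7.15e-06). Against MEFs it remained above all 3 lines with MyoD + F/R/C, by 0.38 ± 0.13, under the size set for a call (adjusted p = 0.019). Timp3, which binds to the matrix and also inhibits ADAMTS proteases, showed 80.7, 115 and 93.2 TPM in MEFs, 376, 223 and 252 TPM with +MyoD and 173, 207 and 168 TPM with MyoD + F/R/C. The steps were 1.39 ± 0.18 (adjusted p = 2.1e-05) and −0.72 ± 0.18 (adjusted p = 0.010), the latter lost without line 1 of +MyoD, without line 3 of MyoD + F/R/C and in the fit of 6 libraries. Timp4 was scarce, with no library above 1.38 TPM. It had 0 to 5 counts with +MyoD and 12 to 96 with MyoD + F/R/C, and its call upwards (3.55 ± 0.95, adjusted p = 0.016) was lost without line 2 of MyoD + F/R/C and in the fit of 6 libraries. Timp1, Timp3 and Timp4 lie within the synapsin genes Syn1, Syn3 and Syn2 on the other strand, and the strand setting of the quantification is not given in the sources used here.

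Other inhibitors and regulators of matrix proteases, and the activators and clearance genes, were read from lists of 10 and 13 genes. The first list also holds Pcolce, an enhancer of procollagen C-proteinase and not an inhibitor of MMPs. Of its 10 genes, 5 rose and 2 fell with +MyoD, 5 rose and 2 fell with MyoD + F/R/C against MEFs, and 3 rose and 4 fell between the latter and +MyoD. In the same order, 22.8%, 26.6% and 10.9% of all tested genes were called higher, and 18.0%, 21.6% and 8.39% lower. Reck, a membrane-anchored MMP inhibitor, rose with +MyoD from 3.85 to 26.2 TPM (2.63 ± 0.27, adjusted p = 2.9e-06). Serpine2, protease nexin-1, rose with +MyoD from 98.3 to 991 TPM (3.05 ± 0.16, adjusted p = 8.1e-09). Pcolce rose with +MyoD to 999 TPM from 337 TPM (1.54 ± 0.17, adjusted p = 5.0e-06) and was back at 375 TPM with MyoD + F/R/C (−1.51 ± 0.17 against +MyoD). Of the 3 proteoglycan genes of the SPOCK family, Spock1 and Spock2 were higher with MyoD + F/R/C than in MEFs (5.04 ± 0.86 and 3.01 ± 0.39, adjusted p = 0.00025 and 1.9e-05) and than with +MyoD (5.16 ± 0.88 and 1.20 ± 0.38). Spock3 passed in neither (1.53 ± 0.69 and −0.14 ± 0.68).

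Of the activators and clearance genes, 7 rose and 3 fell with +MyoD, 8 rose and 4 fell with MyoD + F/R/C against MEFs, and 4 rose and 6 fell between the latter and +MyoD. The shares of all tested genes are those given for the list of inhibitors. Plat, tissue plasminogen activator, rose with +MyoD (2.78 ± 0.16, adjusted p = 1.3e-08) and stood at 172 TPM with MyoD + F/R/C from 14.8 TPM in MEFs. Mrc2, a receptor that takes up collagen fragments, rose with +MyoD (2.90 ± 0.19, adjusted p = 4.0e-08) and was lower again with F/R/C (−1.31 ± 0.19 against +MyoD), and Ctsk, cathepsin K, rose with +MyoD by 1.92 ± 0.15. Hgf, hepatocyte growth factor, stood at 0.886 TPM in MEFs and at 68.8 TPM with MyoD + F/R/C (5.93 ± 0.39, adjusted p = 4.9e-08), and Pcsk6, a proprotein convertase, was 2.06 ± 0.32 higher there than with +MyoD (adjusted p = 0.00045). Plaur, the urokinase receptor, fell against MEFs with MyoD + F/R/C from 500 to 27.5 TPM (−4.51 ± 0.31, adjusted p = 8.1e-08). Of the ADAMTS-like genes, which resemble ADAMTS proteases but lack the protease domain, 6 of 7 rose with +MyoD, where 22.8% of all tested genes were called higher. Among them were Thsd4 (2.69 ± 0.19), Adamtsl4 (2.54 ± 0.19) and Adamtsl1 (3.75 ± 0.30). Compared with +MyoD, Adamtsl3 fell with MyoD + F/R/C from 13.9 to 1.18 TPM (−4.52 ± 0.43, adjusted p = 1.8e-05), Adamtsl4 fell (−1.18 ± 0.19), and Thsd4 rose by 1.55 ± 0.18 (adjusted p = 4.3e-05).

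Adding SP or CP to MyoD + F/R/C changed no member past the thresholds in the fit of all 15 libraries by edgeR. Of all tested genes, 0% were called higher and 0% lower with SP, 0% higher and 0.0362% lower with CP, and 0% higher and 0.197% lower with CP against SP. At an unadjusted p under 0.05 stood 4 members with SP, 5 with CP and 3 for CP against SP, beside 6.62%, 7.91% and 4.01% of all tested genes. The members' median log2 fold changes were −0.13, −0.03 and 0.02. None of the companion genes was called. The 9 libraries with F/R/C varied less than the +MyoD libraries. A fit of these 9 alone, planned as an alternative, called 0.146% of genes with SP, 0.823% with CP and 0.385% for CP against SP, and among them were 1, 2 and 1 members. DESeq2 on all libraries called 0, 2 and 1 members and 66, 201 and 100 genes. SP and CP share the MyoD + F/R/C libraries as their control, so that CP against SP is the test of whether they differed.

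Mmp19 was lower with either inhibitor. It went from 93.9, 97.4 and 94.3 TPM with MyoD + F/R/C to 54.5, 59.3 and 52.0 TPM with SP and to 42.7, 53.8 and 46.2 TPM with CP. Neither set of libraries overlapped the MyoD + F/R/C libraries. The log2 fold changes were −0.78 ± 0.23 with SP (adjusted p = 0.65, 0.027 in the fit of 9 libraries and 0.027 to 1 over all alternatives) and −1.11 ± 0.23 with CP (adjusted p = 0.12, 0.0031 in the fit of 9 libraries and 0.0030 to 0.53 over all alternatives). Between CP and SP the difference was −0.32, with a 95% interval of −0.82 to 0.17.

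Adamts17 was higher with CP. Libraries held 2.81, 3.15 and 1.42 TPM with MyoD + F/R/C, 2.16, 1.64 and 0.617 TPM with SP and 6.46, 5.57 and 7.09 TPM with CP, the CP values standing above all others of this gene. With CP the change was 1.85 ± 0.37 (adjusted p = 0.105, 0.030 in the fit of 9 libraries and 0.00035 to 0.73 over all alternatives), with SP it was 0.04 (95% interval −0.76 to 0.83), and CP against SP differed by 1.81 ± 0.37 (adjusted p = 0.095, 0.047 in the fit of 9 libraries and 0.00033 to 0.67 over all alternatives). The highest adjusted p for CP came with counts scaled by transcript length. Adamts17 (chromosome 7, 66839735 to 67153171, plus strand) has 8 annotated transcripts, the main one holding 81.6% of its counts.

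Mmp13, collagenase-3, was the only member higher with SP at an unadjusted p under 0.05. It was at 26.9, 18.8 and 13.7 TPM with MyoD + F/R/C, 73.5, 38.6 and 31.2 TPM with SP and 21.1, 12.9 and 15.6 TPM with CP. Each line had its highest level with SP, and the SP libraries did not overlap those of the other conditions. No alternative called the change (1.22 ± 0.43, adjusted p = 0.68, and 0.22 to 1 over all alternatives). For CP against SP it was −1.46 ± 0.43 (adjusted p = 0.71). Mmp23 was lower with both inhibitors, at 58.1, 98.8 and 109.5 TPM with MyoD + F/R/C against 31.3 to 50.3 TPM with SP (−1.01 ± 0.28, adjusted p = 0.61) and 43.0 to 50.4 TPM with CP (−0.83 ± 0.28, adjusted p = 0.41). Mmp10 changed by −1.02 ± 0.30 with CP (adjusted p = 0.31) and Adamts10 by −0.64 ± 0.27 with SP (adjusted p = 0.73). For CP against SP, Timp1 gave −0.65 ± 0.26 and Adamts7 gave 0.31 ± 0.15, neither near the threshold after adjustment. For the most abundant members the 95% intervals were −0.54 to 0.33 with SP and −0.36 to 0.51 with CP for Mmp2, and −0.07 to 0.47 and −0.29 to 0.25 for Timp2.

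**Figure D5:**
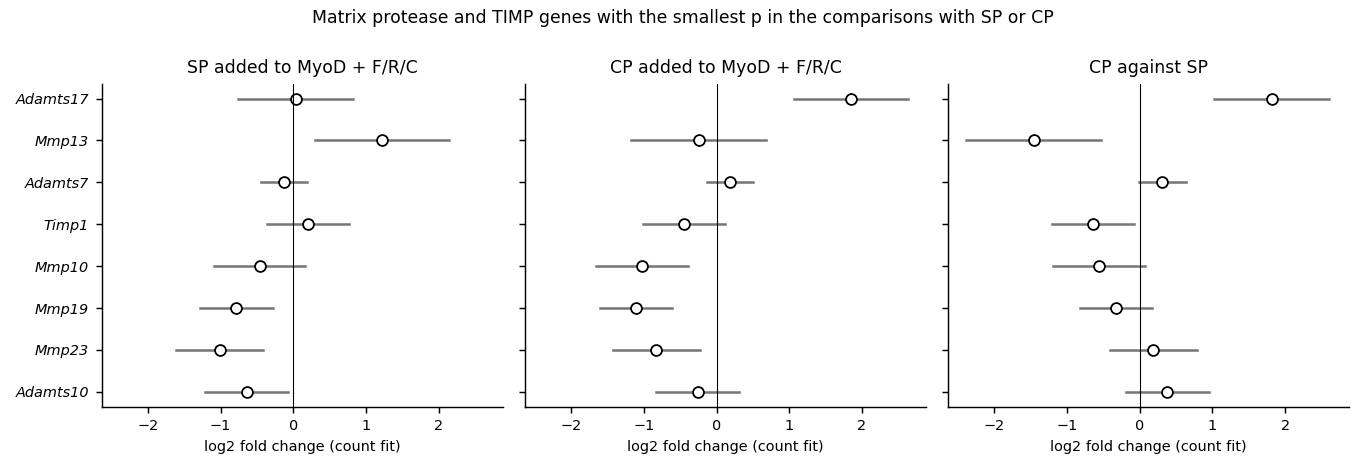
Log2 fold changes with 95% intervals from the count fit for the members with the smallest p in the comparisons with SP or CP (3 lines per condition; open points, none called in the fit of all 15 libraries). Adamts17 lies at 1.85 with CP and 0.04 with SP, Mmp13 at 1.22 with SP and −0.24 with CP, and Mmp19 and Mmp23 below 0 with either.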

How the data were processed

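Single-end reads of poly-A RNA (TruSeq Stranded mRNA libraries, NovaSeq) were processed by the authors with bcl2fastq 2.20, fastp 0.20.0 and kallisto 0.46.1 on GRCm38.p6, and tested by them with DESeq2, per their processing notes. The deposited files hold 1 table per library, with estimated counts per transcript, which divide shared reads between transcripts, and TPM values scaled to effective transcript length. Replicates were not pooled. Transcripts were summed per gene with the GENCODE M21 annotation, which left out transcripts with 0.236 to 0.327% of the counts, and counts were rounded. Reads shared by paralogs and by genes that overlap on opposite strands can be divided wrongly.

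Tests used edgeR 4.0.16 (quasi-likelihood, TMM, R 4.3.3) in 1 fit of all 15 libraries with condition as the only factor, after filterByExpr (counts of at least 10, total of at least 15) had kept 19331 genes. P-values were adjusted by Benjamini-Hochberg over all of them. Standard errors were derived from the fit's posterior variances, and 95% intervals use its t quantiles. Alternatives were DESeq2 1.42.0, DESeq2 size factors in edgeR, no filter, lengthScaledTPM counts (TPM times transcript length), the 6 or 9 libraries concerned, the line as a block, and leaving out each library. The script was tested on simulated data. The same 3 lines stand behind every condition, so replicate numbers pair the libraries: after subtraction of group means the mean correlation was 0.074 over 30 pairs of the same line (−0.0038 to 0.237) and −0.037 over 60 pairs of different lines, and each of the 15 libraries correlated best, on average, with its own line in the other conditions. No replicates were duplicates (chi-square per degree of freedom 18.0 or higher). P-values reflect the spread between 3 embryos.

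Genes were named by a rule: the TIMPs, Mmp2, Mmp14, the 5 most abundant members, up to 8 called members per comparison by size of change (at least 1 TPM and no overlap between groups), the 4 members with the smallest p in each comparison with SP or CP, and up to 3 called genes per companion list. Some results that the rule would name are not reported here. Further members were named after their values were seen. The members, lists and rule were chosen with earlier results of these data known. Promoter sequences are from RefSeq (GRCm38.p6), and 14 members without an entry were not searched. Marker lists were fibroblast, skeletal muscle, macrophage, neutrophil, chondrocyte, osteoblast, endothelial and epithelial.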

Additional observations from a re-analysis of the deposited data

Results flagged for a closer look

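Adamts17 was called higher with CP than with SP in the fit of the 9 libraries with F/R/C, an alternative to the main fit. The log2 fold change was 1.81 (adjusted p = 0.047 by edgeR, 0.00033 to 0.67 over all alternatives), and the gene was higher in 3 of 3 lines. It is listed here because that alternative passed. In the main fit of all 15 libraries the same difference did not pass (adjusted p = 0.095 by edgeR). Mmp1a, the member of the chromosome 9 cluster annotated as a polymorphic pseudogene and therefore in no comparison above, gave signal in every transfected condition: 0.238 to 4.29 TPM with +MyoD (9 to 150 counts), 0.333 to 2.33 TPM with MyoD + F/R/C, 0.876 to 1.91 TPM after adding SP and 0.337 to 0.567 TPM after adding CP. MEFs held 0 to 0.0968 TPM from 0 to 4 counts.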

How the results depend on the processing

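Among the comparisons of the named members, 862 of 894 alternative values stayed on the same side of the thresholds. In the direction of the reported fit, 15 passed where that fit did not and 16 no longer passed, and 1 value reversed with a call. That was Mmp3 between MyoD + F/R/C and +MyoD, at 1.43 without line 3 of +MyoD (−0.75 to 1.43 over the libraries left out). A change of sign was counted as reversed only where either fit passed. The 862 therefore include changes of sign without a call, such as that of Mmp3 in the same comparison with line as a block. Leaving out single libraries gave 27 to 30 members called higher and 0 to 1 lower for +MyoD against MEFs, 27 to 30 and 2 to 3 for MyoD + F/R/C against MEFs, 8 to 12 and 3 to 9 for MyoD + F/R/C against +MyoD, and 0 to 0 in the comparisons with SP or CP. The 9 lower calls came without line 1 of +MyoD, the 4 without line 2 of +MyoD and the 3 without line 3 of MyoD + F/R/C. With the 6 libraries compared alone, 6 members were higher and 3 lower with MyoD + F/R/C than with +MyoD. Likewise 1 was higher and 1 lower with CP, among 91 genes called. With CP, 1 higher (Adamts17) and 1 lower (Mmp19) also came with no filter, with the 9 libraries and with DESeq2, which called 47, 152 and 201 genes. Each of these gave 1 higher for CP against SP (Adamts17), among 51, 71 and 100 genes called. For the fits with single libraries left out, and for the 6 libraries with MyoD + F/R/C against +MyoD, calls over all genes are not given here. The shares of the main fit do not apply to them. The 9 libraries gave 1 lower with SP (Mmp19). Adamts18 was the 1 member called lower for +MyoD against MEFs with lengthScaledTPM counts, with DESeq2 and without line 2 of +MyoD. The replicate block, in which the lines pair the libraries, kept 32, 30 and 3 calls against MEFs and added the 4 named above to MyoD + F/R/C against +MyoD (13 higher and 8 lower in all); it changed no other call. The cause was not tested. Members under 1 TPM rest on few counts, and their fold changes have wide intervals.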
